A study of Rattus norvegicus with 6 samples.

Results

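Lipocalin 2 and genes that move, store and sense iron were examined in cultured rat cardiac fibroblasts in which miR-142-3p was targeted. The members were the entries of the deposited table that carry 1 of 10 names: Lcn2, Tfrc, Fth1, Ftl1, Slc40a1, Slc11a2, Slc39a14, Cp, Hp and Ireb2. Of these names 9 were found, with 11 of the table's 30560 entries, because Ftl1 has 3 entries. Expression of Slc40a1 was not analysed here. The set was selected on the contrast of the 2 groups in these libraries, with the members' fold changes known and Lcn2 among the highest rises. The members' values in that contrast are therefore given as a description, without p-values.

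The cells were primary fibroblasts from the ventricles of newborn SD (Sprague-Dawley) rats aged 1 to 2 days, enriched by early attachment and kept overnight without serum. One group of 3 libraries received, by lipid transfection, 50 nM of the control agent that the labels call NC. The other group of 3 libraries, antagomiR, received the same dose of an antagomiR, a chemically modified antisense oligonucleotide, against miR-142-3p, a microRNA best known from blood cells. Both groups shared the lipid reagent and the starvation, and an untreated group was not analysed here. The labels do not say whether the libraries of a group came from separate cell isolations, so the spread between them may be technical. Polyadenylated RNA was sequenced as paired reads of 150 bases, and values are FPKM, fragment counts scaled for gene length and library total. Where a group's values are listed, they are in the order of replicates 1, 2 and 3. The oligonucleotide's target is printed here because it defines the treatment, from RefSeq (GRCr8, chr10:73055155-73055177, plus strand), with the seed, bases 2 to 8, in capitals.
rno-miR-142-3p: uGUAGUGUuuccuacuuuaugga

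Cells take up iron bound to transferrin through the transferrin receptor, or as free ions through membrane transporters, and keep the surplus inside a ferritin shell built of heavy and light chains. Iron leaves through ferroportin, helped by copper oxidases such as ceruloplasmin, and iron regulatory proteins adjust the translation of ferritin and the stability of transferrin receptor mRNA. Lipocalin 2 is a secreted protein of inflammation that captures bacterial iron carriers, and it is also made by stressed heart, kidney and fat tissue.

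Library totals recovered from the FPKM values ran from 19472409 to 24622667 fragments. The cultures expressed fibroblast genes, with a summed level of 12 markers between 12189 and 13157 FPKM in all 6 libraries. Red cell and endothelial markers summed to at most 1.67 and 3.79 FPKM, and neutrophil markers to at most 4.99 FPKM. The 10 cardiomyocyte markers summed to between 304 and 437 FPKM, of which Tnnt2 held the most. Of 15 macrophage and general leukocyte markers 14 were detected and Marco was at 0, and their summed level set NC replicate 3 apart. It was 144 and 213 FPKM in NC replicates 1 and 2, 725 FPKM in NC replicate 3, and between 946 and 1058 FPKM in the antagomiR libraries. Each of the 14 was highest, within NC, in replicate 3. In such bulk samples fewer cells of a type and less RNA per cell cannot be told apart.

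Lcn2 was almost silent in NC and well expressed with the antagomiR. It lies on chromosome 3 from 15680687 to 15684095 in mRatBN7.2, the build of the deposited table. Its level was 0.0497, 0.120 and 0.196 FPKM in NC replicates 1, 2 and 3, from 1, 3 and 4 fragments. In antagomiR replicates 1, 2 and 3 it was 63.1, 49.9 and 58.0 FPKM, from 1449, 1270 and 1370 fragments. The groups lay far apart, and the highest NC library, replicate 3, was also the NC library with the most leukocyte marker RNA. With 3 and 4 fragments in NC replicates 2 and 3, however, their order cannot be told from counting error. Summed over libraries and scaled to totals, the ratio of antagomiR to NC was 465, with an exact 95% interval of 236 to 1078 that covers counting error only. On the log2(FPKM + 1) scale, which understates changes of low genes, the difference was 5.69 with a standard error of 0.10. This was the fourth highest of 12024 genes tested, those whose mean level reached 1 FPKM, a filter that Lcn2, like Hp, passed only through its antagomiR values. With a pseudocount of 0.1 in place of 1 the difference was 8.06, and with the limma voom fit to fragments it was 8.68. Ranked by mean FPKM, Lcn2 went from place 12011 in NC to place 1227 with the antagomiR.

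**Figure D1:**
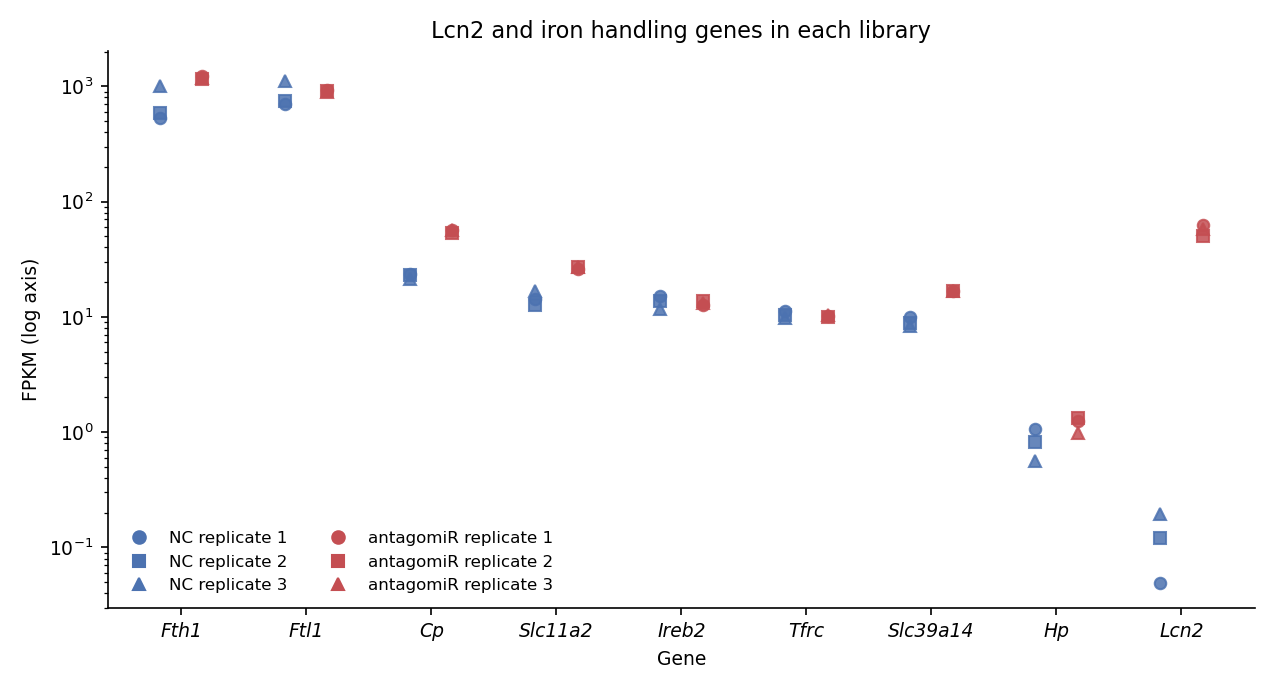
FPKM on a log axis of 9 genes in each of the 6 libraries, blue for NC and red for antagomiR, with a marker shape for each replicate number; Ftl1 is shown by its abundant entry. Lcn2 moves from 0.0497 to 0.196 FPKM in NC to 49.9 to 63.1 FPKM with the antagomiR, while the 2 ferritin genes lie highest in every library and Tfrc and Ireb2 overlap between the groups.

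The 250 bases before the transcript start are shown for Lcn2 and Cp, the members higher with the antagomiR whose window held a match to a searched motif. Both windows of Slc11a2, also higher, held none and are not shown. For Slc39a14 and Fth1, higher as well, no window was found, so they were not searched. The sequences are from RefSeq (GRCr8) and are written 5′ to 3′ in the direction of the gene. Lcn2 is at chr3:36081781-36082030 on the minus strand and Cp at chr2:104368420-104368669 on the plus strand. Capitals mark matches to the NF-kB consensus or to the C/EBP core TTNNGCAA, searched on both strands, and no marked matches overlap.
Lcn2: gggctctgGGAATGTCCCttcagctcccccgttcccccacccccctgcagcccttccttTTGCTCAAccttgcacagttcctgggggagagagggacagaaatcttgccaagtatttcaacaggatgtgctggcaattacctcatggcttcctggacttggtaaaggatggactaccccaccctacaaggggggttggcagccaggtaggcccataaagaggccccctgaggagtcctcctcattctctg
Cp: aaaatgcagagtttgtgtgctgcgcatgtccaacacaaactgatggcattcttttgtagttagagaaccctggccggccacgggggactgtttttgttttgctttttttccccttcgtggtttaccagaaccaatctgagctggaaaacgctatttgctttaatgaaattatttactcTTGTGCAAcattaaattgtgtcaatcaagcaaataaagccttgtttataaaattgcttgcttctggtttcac

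The NF-kB match of Lcn2, GGAATGTCCC, lies 242 to 233 bases before the start, and its C/EBP match, TTGCTCAA, 191 to 184 bases before it. Both read as the motif on the opposite strand. The match of Cp, TTGTGCAA, lies 72 to 65 bases before the start. Of 33469 windows of this length in the table, 3.54% held the NF-kB consensus, 9.22% the C/EBP core and 7.67% the STAT core TTCNNNGAA. Of 7 windows found for 6 of the 10 names, 1 held the first, 2 the second and 0 the third. These windows include that of Slc40a1, whose expression was not analysed here. A match describes letters and does not show a binding site.

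Hp encodes haptoglobin, which binds free hemoglobin, and is, like Lcn2, a secreted protein of the acute phase response. It remained near the lower limit of the values considered, with 1.07, 0.815 and 0.561 FPKM in the NC libraries against 1.26, 1.32 and 0.992 FPKM in the antagomiR libraries. The groups overlapped, since antagomiR replicate 3 lay below NC replicate 1, and the log2 difference was 0.28 with a standard error of 0.13. It was 0.52 with a pseudocount of 0.1, 0.51 by voom, 0.13 with quantile normalization and 0.17 without NC replicate 3. These values rest on 19 to 56 fragments a library, far fewer than for the other members except Lcn2 in NC and the low Ftl1 entries.

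Of the uptake genes, Slc11a2 and Slc39a14 were higher with the antagomiR, and Tfrc overlapped between the groups. Tfrc, the transferrin receptor gene, had 11.3, 10.4 and 9.87 FPKM in the NC libraries against 10.2, 9.98 and 10.3 FPKM in the antagomiR libraries. The groups overlapped, with a log2 difference of -0.05 and a standard error of 0.06, and of -0.17 with quantile normalization. Slc11a2, which encodes the ferrous iron transporter DMT1, had 14.4, 12.6 and 16.9 FPKM in the NC libraries against 25.8, 27.3 and 27.1 FPKM in the antagomiR libraries. Its lowest antagomiR library was above its highest NC library, NC replicate 3. The means were 14.7 ± 2.15 and 26.7 ± 0.811 FPKM (SD, n = 3), and the log2 difference was 0.83 with a standard error of 0.10.

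Slc39a14 encodes ZIP14, which imports zinc, manganese and iron that is not bound to transferrin. It had 10.01, 8.90 and 8.40 FPKM in the NC libraries against 16.7, 16.6 and 16.8 FPKM in the antagomiR libraries. The 3 antagomiR libraries lay within a narrow band above all NC libraries, and NC replicate 3 was here the lowest. The log2 difference was 0.81 with a standard error of 0.07.

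The ferritin genes were the most abundant members, and in FPKM the heavy chain changed its place relative to the light chain. Fth1, the heavy chain that oxidizes iron, had 535, 586 and 1009.8 FPKM in the NC libraries against 1226, 1158 and 1172 FPKM in the antagomiR libraries. The groups did not overlap, but NC replicate 3 lay nearer to the antagomiR libraries than to the other NC libraries. The means were 710.2 ± 261 and 1185 ± 36.0 FPKM (SD, n = 3). The log2 difference was 0.80 with a standard error of 0.22, and 1.08 with a standard error of 0.06 without NC replicate 3.

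Ftl1, the light chain that helps iron to mineralize, had its abundant entry on chromosome 1 (95936387 to 95939725), with 707, 747 and 1109 FPKM in the NC libraries against 923, 904 and 887 FPKM in the antagomiR libraries. NC replicate 3 was the highest of all 6 libraries and the groups overlapped. The log2 difference was 0.11 with a standard error of 0.16, and 0.32 with a standard error of 0.05 without NC replicate 3. It was 0.03 without NC replicate 2, and without NC replicate 1 it turned to -0.0090. In NC, replicate 3 had 1.80 times the mean of replicates 1 and 2 for Fth1 and 1.53 times for Ftl1. It was also the NC library with the highest leukocyte marker level, and the part of those cells in the ferritin values was not tested.

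The ratio of Fth1 to Ftl1, both per length, was 0.757, 0.783 and 0.910 in the NC libraries against 1.33, 1.28 and 1.32 in the antagomiR libraries. In FPKM the light chain thus exceeded the heavy chain in each NC library, and the heavy chain was the higher in each antagomiR library. This crossing depends on the recovered lengths, 773 bases for Fth1 and 1620 for Ftl1. Ftl1 had more fragments in every library, with 33229, 36074 and 32845 against 21052, 22038 and 20696 for Fth1 in the antagomiR libraries. The shift of the ratio between the groups does not depend on these lengths. The sum of the 2 genes was 1242, 1333 and 2119 FPKM in the NC libraries against 2149, 2062 and 2059 FPKM in the antagomiR libraries, so NC replicate 3 fell inside the antagomiR range for the sum but not for the ratio.

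**Figure D2:**
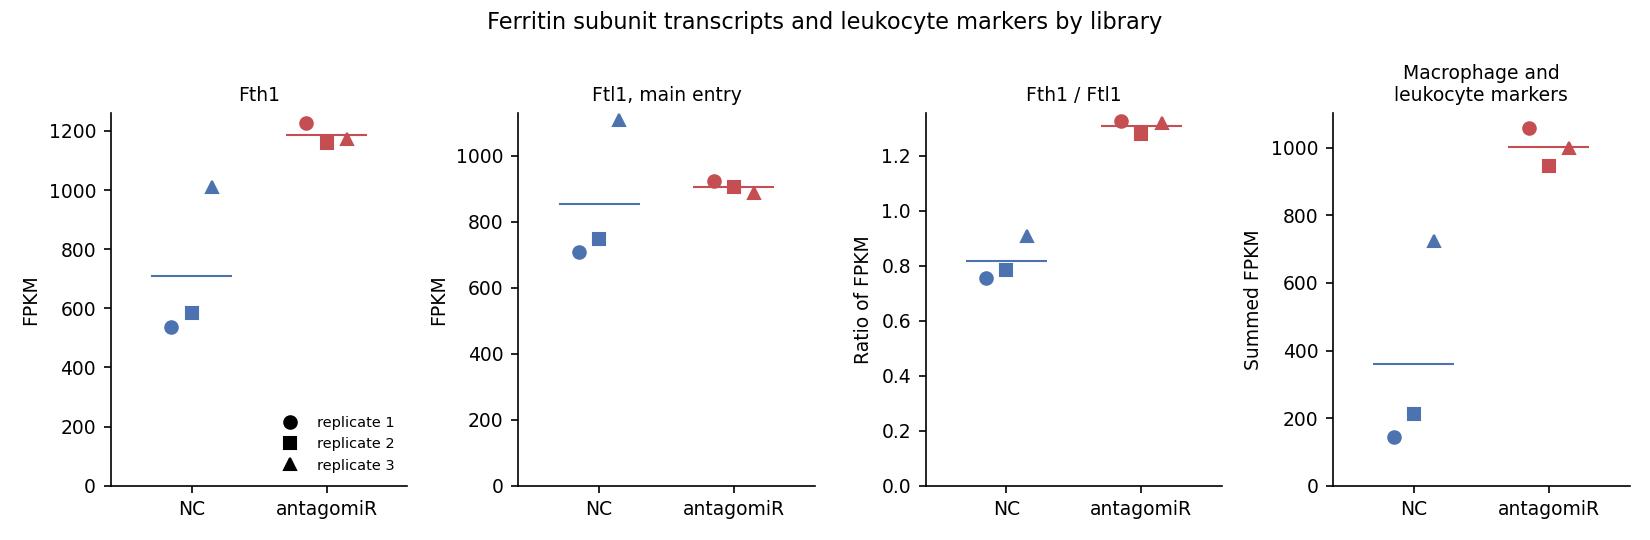
FPKM of Fth1 and of the abundant Ftl1 entry, the ratio of these 2 levels, and the summed FPKM of 15 macrophage and leukocyte markers in each library, with group means as lines and all axes from 0. NC replicate 3 (blue triangle) stands above the other NC libraries in all 4 panels, and the ratio lies at 0.757 to 0.910 in NC and 1.28 to 1.33 with the antagomiR.

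The ferritin values carry a limit of annotation. The Fth1 entry spans 98.3 kb on chromosome 1 (206627103 to 206725424), although the length recovered from its FPKM was only 773 bases. The other Ftl1 entries were low. The one on chromosome 5 (144647541 to 144648477) was between 0.767 and 2.38 FPKM, and the one on chromosome 10 (44257727 to 44258273) between 0.123 and 1.59 FPKM, with overlapping groups in both. Reads from near-identical ferritin copies may be split between such entries, and their levels are uncertain.

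Cp encodes ceruloplasmin, the copper oxidase that loads exported iron onto transferrin, and it was higher in all antagomiR libraries. It had 23.7, 23.0 and 21.4 FPKM in the NC libraries against 56.4, 53.5 and 56.1 FPKM in the antagomiR libraries. The ranges were narrow and far apart, and NC replicate 3 was the lowest library. The means were 22.7 ± 1.18 and 55.3 ± 1.61 FPKM (SD, n = 3), and the log2 difference was 1.25 with a standard error of 0.06. Expression of Slc40a1, which encodes ferroportin, with which ceruloplasmin works, was not analysed here.

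Ireb2 encodes iron regulatory protein IRP2, which binds ferritin and transferrin receptor mRNAs when iron is scarce. It had 15.2, 13.8 and 11.7 FPKM in the NC libraries against 12.6, 13.7 and 13.2 FPKM in the antagomiR libraries. All antagomiR libraries fell inside the NC range, and the log2 difference was -0.04 with a standard error of 0.10. It was -0.13 without NC replicate 3, 0.04 without NC replicate 1 and -0.15 with quantile normalization.

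Among the 10 entries that passed the filter of a mean of 1 FPKM, the groups did not overlap for 5, where 44.6% of all tested genes had groups that did not overlap, and 29.2% had antagomiR above NC. The 5 were Lcn2, Cp, Slc11a2, Slc39a14 and Fth1, each higher with the antagomiR, and the low Ftl1 entry on chromosome 10 did not pass the filter. The fit across all genes (limma on log2(FPKM + 1), Benjamini-Hochberg adjusted p under 0.05) called the same 5 entries up and 0 down, where it called 26.7% of all tested genes. The list was put together with the contrast known, so nothing is read from these shares. Fth1 left that count with no filter, with median-ratio scaling and when any 1 library other than NC replicate 3 was left out. The abundant Ftl1 entry joined the count without NC replicate 3.

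The order of levels in FPKM also differed between the groups. In NC the ferritin genes overlapped at the top, Cp followed, then Slc11a2 and Ireb2 with overlapping ranges, Tfrc and Slc39a14 with overlapping ranges, Hp, and Lcn2 as the lowest. With the antagomiR Fth1 was above Ftl1, and Lcn2 and Cp came next with overlapping ranges. They were followed by Slc11a2, Slc39a14, Ireb2, Tfrc and Hp, whose ranges did not touch. The coefficient of variation was smaller between antagomiR than between NC libraries for each of the 9 genes, with Ftl1 taken by its abundant entry. It was 60.2% and 11.7% for Lcn2, 36.7% and 3.04% for Fth1, and 5.19% and 2.91% for Cp, in NC and antagomiR.

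The genes whose pattern over the 6 libraries was most like that of Lcn2 were chemokine, phospholipase and complement genes. Likeness was the root mean square distance between log2(FPKM + 1) values, each gene centred on its own mean, over 12023 other tested genes. The nearest was the neutrophil chemokine gene Cxcl3, at a distance of 0.184, whose mean went from 0.362 ± 0.346 to 59.3 ± 5.10 FPKM (SD, n = 3). Cxcl1 followed at 0.206, then the monocyte chemokine genes Ccl7 at 0.360 and Ccl12 at 0.556, the secreted phospholipase gene Pla2g2a at 0.558 and the complement gene C3 at 0.570. Cxcl3 and Pla2g2a, with NC means of 0.362 and 0.388 FPKM, passed the filter only through their antagomiR values. In each of these 6 genes NC replicate 3 was the highest NC library, as it was for Lcn2, there on only 4 fragments. Since 6 libraries in 2 groups set this measure, it mainly ranks genes by the size of the group difference.

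**Figure D3:**
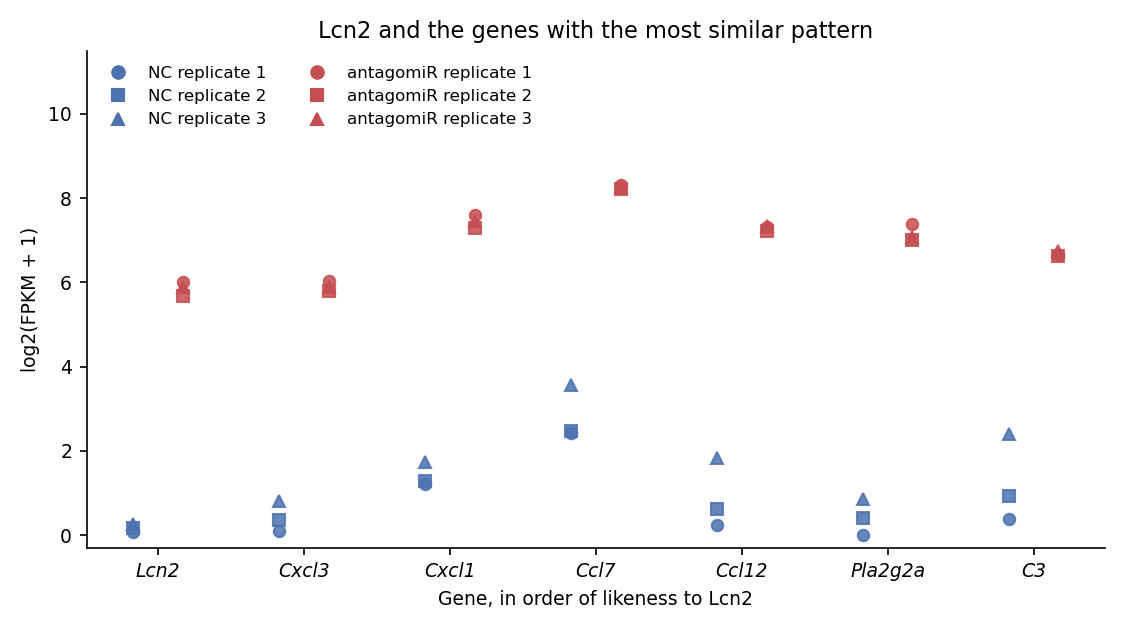
Log2(FPKM + 1) in each library of Lcn2 and, in order of likeness, the 6 genes nearest to it in pattern, blue for NC and red for antagomiR. All antagomiR values of each gene lie above all its NC values, and Lcn2 and Cxcl3 start near 0.

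Serum carriers of iron, heme and siderophores and their receptors changed in both directions. Of 9 listed genes, 5 passed the filter, 2 rose and 1 fell, where 17.5% of all tested genes rose and 9.21% fell, and their median log2 difference was 0.20 against 0.06 over all tested genes. Hpx, which encodes the heme carrier hemopexin, rose from 1.03 ± 0.392 to 3.50 ± 0.138 FPKM (SD, n = 3; limma adjusted p = 0.00145). Slc22a17, a reported Lcn2 receptor, fell from 21.6 ± 1.05 to 16.4 ± 0.251 FPKM, a log2 difference of -0.38 (limma adjusted p = 0.00302). Bdh2, an enzyme reported to make a mammalian iron carrier, rose by 0.34 on the log2 scale (limma adjusted p = 0.0113, and 0.0536 without antagomiR replicate 2).

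The other carriers were not called. The transferrin gene Tf was at 17.3 and 19.9 FPKM on average in NC and antagomiR (limma adjusted p = 0.165), and the hemopexin receptor gene Lrp1 at 179 and 165 FPKM (limma adjusted p = 0.245). Without NC replicate 3 both were called, Tf up and Lrp1 down, so that all 5 tested carriers were. The megalin gene Lrp2, another Lcn2 receptor, was between 0.0709 and 0.172 FPKM, Ltf was at 0 in all libraries, and the albumin gene Alb and the haptoglobin receptor gene Cd163 were at 0 in 4 and 5 libraries.

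Uptake genes outside the named set rose in part. Of 13 listed genes 10 passed the filter, 4 rose and 0 fell by limma, with 5 up and 0 down at an unadjusted p under 0.05 and 4 and 0 by voom. Their median log2 difference was 0.33. Over all tested genes 17.5% rose, 9.21% fell and the median was 0.06. Scara5, which encodes a receptor for ferritin, rose from 23.8 ± 0.488 to 69.8 ± 6.77 FPKM (SD, n = 3; limma adjusted p = 4.46e-05). The metalloreductase gene Steap4 rose from 0.386 ± 0.184 to 3.35 ± 0.504 FPKM (limma adjusted p = 0.000273), but passed the filter only through its antagomiR values, where it had to differ. Slc39a8, which encodes ZIP8, the closest relative of ZIP14, rose from 1.54 ± 0.286 to 3.98 ± 0.499 FPKM (limma adjusted p = 0.0014).

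Slc11a1, the phagosomal relative of Slc11a2 known from macrophages, also rose, but NC replicate 3 stood apart as for the leukocyte markers. It had 1.09, 2.18 and 9.42 FPKM in the NC libraries against 26.6, 25.6 and 26.8 FPKM in the antagomiR libraries (limma adjusted p = 0.00905). The leukocyte markers rose in 6 of 14 tested genes, where 17.5% of all tested genes rose. Among the 6 were Adgre1, Aif1, Cd14, Fcer1g and Tyrobp. All 14 rose without NC replicate 3, and 3 without NC replicate 2 or any 1 antagomiR library. With all libraries kept, the alternatives called 4 to 9 leukocyte markers. Lyz2, the most abundant, had means of 186 and 523 FPKM without a call (limma adjusted p = 0.0511). It was called up with the filter at 5 FPKM (0.0479), quantile normalization (0.0397), the replicate block (0.0465) and by voom (0.0380). Mrc1, C1qa, C1qb and C1qc were not called either, with log2 differences of 0.10, 0.14, 0.15 and 0.31. For these and Cd68, also not called, NC replicate 3 lay above all antagomiR libraries. The part of leukocytes in the value of Slc11a1 was not tested. The ferric reductase genes Steap1, Steap2, Steap3 and Cybrd1, the folate and heme carrier gene Slc46a1 and the mitochondrial serine carrier gene Sfxn1 were not called, with log2 differences of -0.02, 0.18, 0.49, 0.04, 0.03 and 0.04. Without NC replicate 3 Steap3 was called up. Tfr2, Timd2 and Mcoln1 were below 0.329 FPKM in all libraries.

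**Figure D4:**
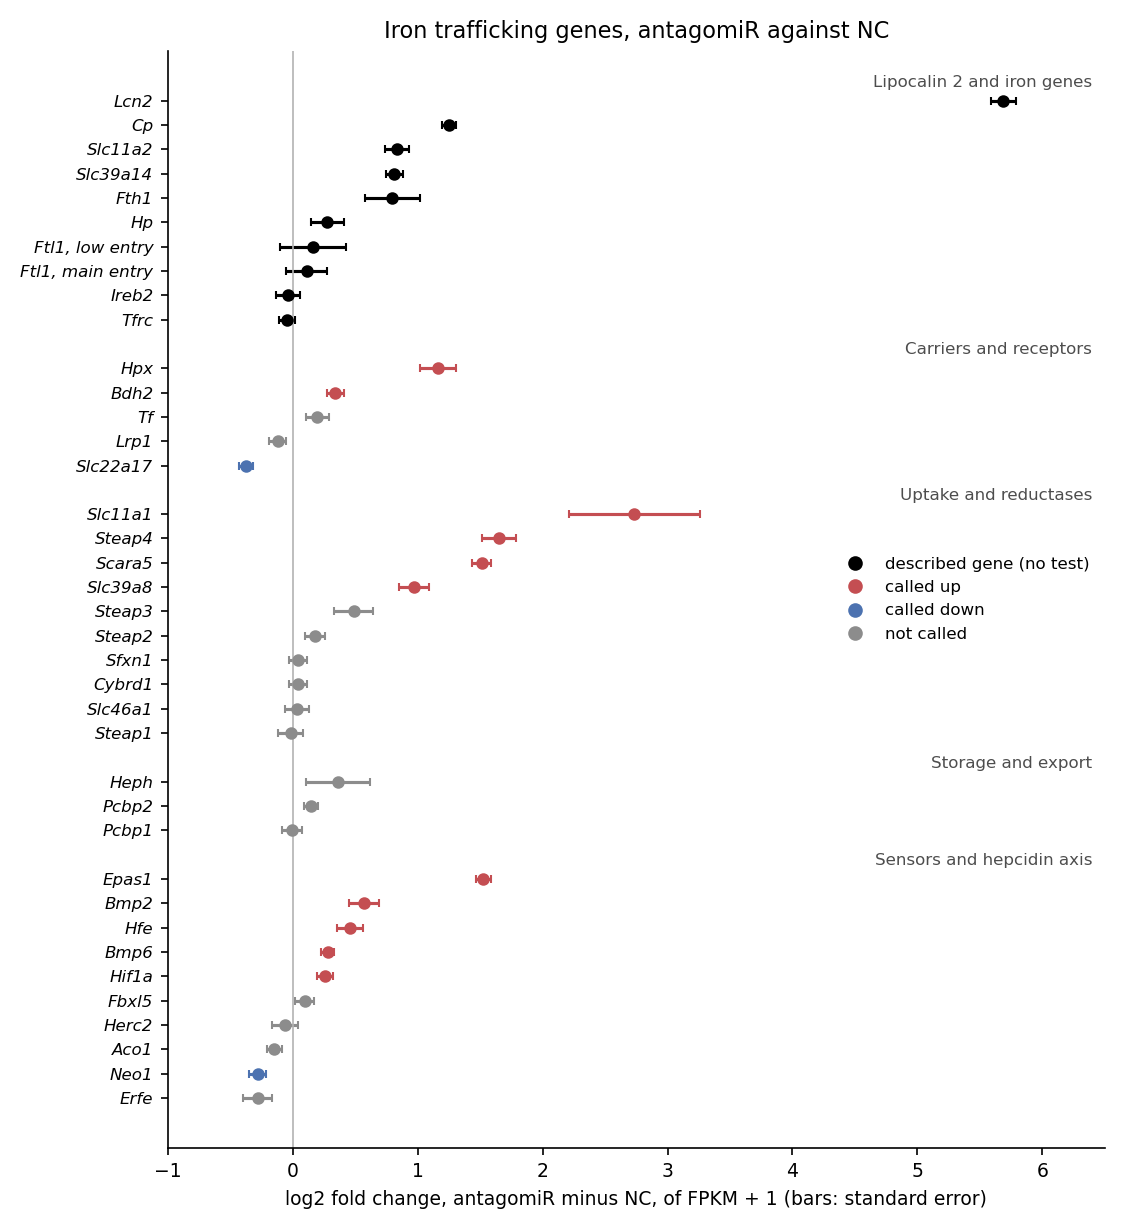
Log2 fold change of FPKM + 1, antagomiR minus NC, with standard error bars, for Lcn2 and the named iron genes (black, no test) and for tested genes of 4 further iron gene lists (red called up, blue called down, grey not called). Lcn2 lies at 5.69, Slc11a1 at 2.73 with the longest bar, and Slc22a17 at -0.38 is the lowest.

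Storage and export genes outside the named set were hardly measured. Of 9 listed genes 3 passed the filter and 0 were called by limma, with 1 at an unadjusted p under 0.05 and 0 by voom. Of all tested genes limma called 26.7%. The iron chaperone genes Pcbp1 and Pcbp2 had means of 68.0 and 123 FPKM in NC, and of 67.4 and 136 FPKM in the antagomiR group. Heph, which encodes the oxidase hephaestin, had 1.14, 0.845 and 2.82 FPKM in the NC libraries against 2.34, 2.14 and 2.04 FPKM in the antagomiR libraries. Without NC replicate 3, Heph and Pcbp2 were called up. Ncoa4, the receptor for ferritin breakdown, has 2 entries at 0 to 0.281 FPKM, which may not show its level in the cells, and Ftmt and Hephl1 were at 0. Abcg2 and Prom2 were below 0.921 FPKM in all libraries, and Fthl17 was not analysed here.

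Among iron sensors and genes of the hepcidin axis, 10 of 13 passed the filter, 5 rose and 1 fell, with a median log2 difference of 0.18. Without NC replicate 2 or antagomiR replicate 1 or 2 the called genes were 3, and without antagomiR replicate 3 they were 2. Over all tested genes 17.5% rose, 9.21% fell and the median was 0.06. Epas1, which encodes the hypoxia factor HIF-2alpha, rose from 17.6 ± 1.02 to 52.5 ± 2.20 FPKM (SD, n = 3; limma adjusted p = 1.93e-05). Bmp6, a ligand that drives hepcidin in liver, rose from 121 ± 4.95 to 147 ± 1.58 FPKM (limma adjusted p = 0.00717). Bmp2 rose by 0.57 on the log2 scale (limma adjusted p = 0.0125, and 0.0554 and 0.0569 without antagomiR replicate 2 or 3). Bmp2 and Hfe passed the filter only through their antagomiR values.

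The calls of Hfe, Hif1a and Neo1 were weak. The hemochromatosis gene Hfe was called up at 0.46, the hypoxia factor gene Hif1a up at 0.26 and the hemojuvelin receptor gene Neo1 down at -0.28. Hfe lost its call in 6 of 13 alternatives, among them leaving out NC replicate 1 or 2 or antagomiR replicate 1 or 3. Neo1 lost its call in 6 of 14, among them leaving out any 1 library except NC replicate 3. Hif1a lost its call in 8 of 14, among them both rescalings and leaving out NC replicate 2 or any 1 antagomiR library.

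Aco1, which encodes iron regulatory protein IRP1, was at 21.5 ± 1.31 and 19.3 ± 0.638 FPKM (SD, n = 3) and was not called (limma adjusted p = 0.125). It was called down after median-ratio scaling (0.0383), quantile normalization (0.0255) and by voom (0.0346). Fbxl5, the iron-sensing ligase subunit that removes IRP2, was at 18.6 and 19.9 FPKM, and Herc2, a ligase reported to act on Fbxl5, at 9.40 and 8.89 FPKM, without a call. Erfe, which encodes erythroferrone, a suppressor of hepcidin, was at 1.35 and 0.938 FPKM (limma adjusted p = 0.119) and was called down after quantile normalization (0.0326). The hepcidin gene Hamp itself had 1.25, 1.10 and 0 FPKM in the NC libraries against 0.329, 0 and 0.639 FPKM in the antagomiR libraries, below the filter. Hjv and Tmprss6 were below 0.196 FPKM.

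Other acute phase genes, the class that also holds Lcn2, Cp and Hp, were higher with the antagomiR where they were expressed. Of 24 listed genes 22 were found and 10 passed the filter, and all 10 rose, with a median log2 difference of 2.54. Leaving out any 1 library other than NC replicate 3 gave 9, without Il1rn. Of all tested genes 17.5% rose, and the median log2 difference over all of them was 0.06. The acute phase list was chosen with earlier results of these data known, so its count is only a description. Each of the 10, Hpx among them, had a mean of at least 1.03 FPKM in NC, and the other 12 genes found lay under the filter. Mt2A, a metallothionein that binds zinc and copper, rose from 7.58 ± 0.218 to 112 ± 8.35 FPKM (SD, n = 3; limma adjusted p = 7.25e-07). Lbp, which encodes a binding protein for bacterial lipopolysaccharide, rose from 3.91 ± 0.420 to 22.7 ± 0.650 FPKM (limma adjusted p = 6.94e-06), and Ptx3, a pentraxin, from 13.5 ± 1.75 to 43.0 ± 2.71 FPKM (limma adjusted p = 8.52e-05). The complement genes C4a and Serping1 rose from 1.48 ± 0.752 to 15.3 ± 0.645 FPKM and from 14.6 ± 8.30 to 183 ± 4.40 FPKM (SD, n = 3; limma adjusted p = 0.000176 and 0.000299). NC replicate 3, the NC library with the most leukocyte marker RNA, was the highest NC library for C4a, Serping1, C3, Cfb, Il1rn, Lbp and Mt2A. For Il1rn it had 17.9 FPKM against 1.95 and 2.47 FPKM in replicates 1 and 2. For Lbp it had 4.39 FPKM against 3.74 and 3.61 FPKM, and for Mt2A 7.79 FPKM against 7.36 and 7.59 FPKM. For Hpx, Ptx3 and A2m it was the lowest NC library. The part of leukocytes in these values was not tested. The liver-type genes Apcs, Fga, Fgb, Serpina1 and Serpina3m were at 0 in all libraries.

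Transcription factors and receptors known to act on the Lcn2 gene rose in 13 of 16 tested cases and fell in 0 by limma, with 14 up and 0 down at an unadjusted p under 0.05 and 13 up and 1 down by voom. The median log2 difference was 0.61, against 0.06 over all tested genes, of which 17.5% rose and 9.21% fell. This list was chosen with earlier results of these data known, so its counts are only a description. Nfkbiz, the nuclear NF-kB cofactor that Lcn2 transcription requires, rose from 3.22 ± 0.168 to 21.3 ± 0.356 FPKM (SD, n = 3; limma adjusted p = 1.9e-06). Cebpd, a C/EBP factor of the acute phase, rose from 26.4 ± 4.31 to 115 ± 2.29 FPKM (limma adjusted p = 4.46e-05), and the interleukin 1 receptor gene Il1r1 from 42.4 ± 1.88 to 104 ± 2.29 FPKM (limma adjusted p = 1.96e-05). Nfkb1 rose by 0.73 on the log2 scale (limma adjusted p = 0.000128). The most abundant of the list were Atf4, at 325 and 298 FPKM without a call (called down after median-ratio scaling, 0.0457, and by voom, 0.0356), and Il6st, up by 0.41 (limma adjusted p = 0.0155, and 0.0655 and 0.0669 without antagomiR replicate 2 or 3).

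**Figure D5:**
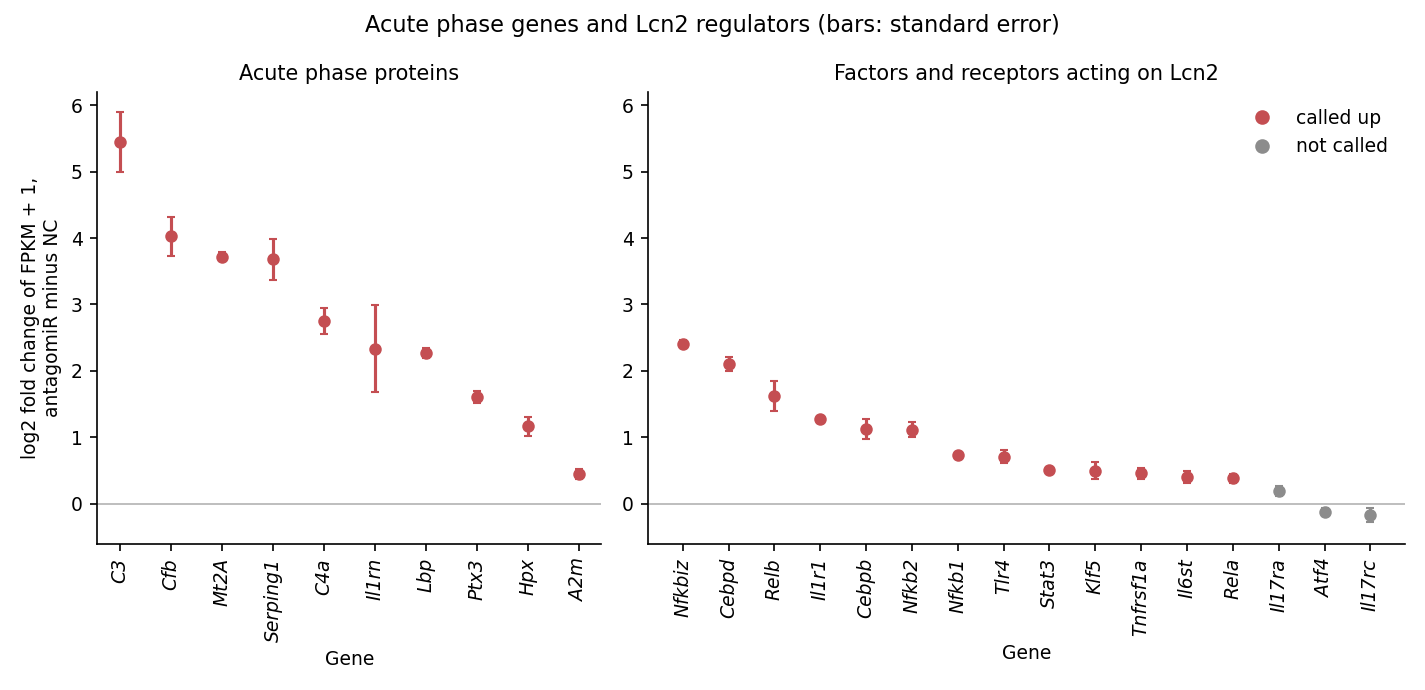
Log2 fold change of FPKM + 1, antagomiR minus NC, with standard error bars, for the tested acute phase genes (left) and for tested factors and receptors that act on the Lcn2 gene (right), red where called up and grey where not. All 10 acute phase genes and 13 of the 16 others are called up, against 17.5% of all tested genes. Nfkbiz is highest on the right at 2.40.

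Lcn2 is also stored in neutrophil granules, and markers of those cells were near 0. Of 13 neutrophil markers 12 had a mean below 1 FPKM, and the granule genes Elane and Mpo and the abundant neutrophil gene S100a9 were at 0 in all libraries. The other, Camp, which encodes a cathelicidin that epithelia and macrophages also make, had 0, 0 and 0.0866 FPKM in the NC libraries against 3.53, 2.01 and 2.39 FPKM in the antagomiR libraries (limma adjusted p = 0.000379), and passed the filter only through the latter. The markers' summed level was 0.233, 0.567 and 3.03 FPKM in the NC libraries and between 3.16 and 4.99 FPKM with the antagomiR. In NC replicate 3 Fcnb held 1.51 FPKM of that sum, and in each antagomiR library Camp held the most. Below the filter the markers differed in direction. Csf3r had 3, 12 and 30 fragments in the NC libraries against 42, 36 and 47 in the antagomiR libraries. Cxcr2 had 0, 1 and 1 against 2, 2 and 5 fragments, and Ngp 0 in each NC library against 1 in each antagomiR library. Mmp8 went the other way, with 4, 7 and 16 fragments in the NC libraries and 0 in each antagomiR library. Retnlg had 0, 1 and 2 fragments in the NC libraries and 0 in each antagomiR library. The part of neutrophils and of other leukocytes in the Lcn2 values was not tested.

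Of the fibroblast markers 6 rose and 3 fell among 12, which gives no single direction for the cells' own genes. Over all tested genes 17.5% rose and 9.21% fell. Pdgfra, a receptor of resident fibroblasts, rose from 8.53 ± 1.20 to 27.5 ± 0.149 FPKM (SD, n = 3; limma adjusted p = 8.28e-05). The matrix genes Dcn, Postn and Lum rose by 1.37, 0.89 and 0.80 on the log2 scale. Thy1 went from 47.7 to 34.0 FPKM and Vim from 1511 to 1240 FPKM. Both were called down, at -0.47 and -0.28 on the log2 scale (limma adjusted p = 0.0150 and 0.0351). The collagen gene Col1a2 was called down at -0.31 and lost its call in 6 of 14 alternatives, among them leaving out NC replicate 2 or any 1 antagomiR library. Col1a1 had means of 4609 and 4161 FPKM without a call, though it was called down after quantile normalization and by voom. Among 8 tested cardiomyocyte markers Myl2 and Myh7 were called up at 0.41 and 0.39, the latter not without NC replicate 2 or antagomiR replicate 1 or 3. Nppa was at 50.4 and 56.4 FPKM without a call, and Tnnt2 fell by 0.42 (limma adjusted p = 0.0127, and 0.0515 without NC replicate 2). The 1 tested endothelial marker, Tek, was called up at 0.32 but lost its call in 9 of 13 alternatives, among them leaving out any 1 library except NC replicate 3. No red cell marker passed the filter.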

How the data were processed

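The authors deposited FPKM per gene and library, with symbols and coordinates. Per the submitters' processing notes, HISAT2, HTSeq, edgeR, cutadapt and FastQC were used with the build mRatBN7.2. No source used here gives tool versions, the annotation release or whether counting used strand, so overlapping and antisense genes cannot be told apart. Column names match the group and number in the library titles, and 0 value columns were left unused. Whole fragments within 0.01 were recovered from FPKM for 20133 of 20134 genes above 0, with totals from features of at most 400 bases. They made up at least 99.66% of each total. The fit was limma 3.58.1 in R 4.3.3 (lmFit, eBayes with a trend, two-sided) on log2(FPKM + 1), restricted to the 12024 entries whose 6-library mean reached 1 FPKM, with Benjamini-Hochberg adjustment over all of them and a threshold of 0.05. It was tested on simulated data that held no deviating library such as NC replicate 3. Members and the 14 other lists (carriers, uptake, storage and export, sensors, heme, iron-sulfur, acute phase, Lcn2 regulators and 6 cell types) were chosen with earlier results of these data known. Named genes were all of the first 4 lists, the 4 smallest p and 2 highest means of the others, and the 6 most like Lcn2. Marco, Mrc1, C1qa, C1qb, C1qc, Cd68, Mmp8, Retnlg, Csf3r, Cxcr2, Ngp, Thy1, Vim, A2m, Il1rn, Cfb and Fcnb were picked with their values in view. So were the genes listed at 0 and those counted in 5 or fewer. Alternatives were a pseudocount of 0.1, no filter, a filter at 5 FPKM, quantile normalization, median-ratio scaling, no trend, a replicate block, limma voom on recovered fragments with trimmed mean of M values (TMM) factors, and leaving out each library.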

Additional observations from a re-analysis of the deposited data

How the results depend on the processing

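Another pseudocount, filter, scaling, trend, block or voom gave 2380 to 3317 called genes, against 3216, and leaving out 1 library gave 1883 to 4862, the highest without NC replicate 3. Median-ratio scaling, quantile normalization and voom lowered the share of risen among called genes from 65.6% to 51.4%, 43.1% and 52.6%, and quantile normalization moved the median log2 difference of all genes from 0.06 to -0.05. Tfrc then lay at -0.17. Called counts changed by over 1.5 times for uptake genes, 2 with the filter at 5 FPKM, and for the iron-sulfur list, 3 by voom. The labels do not say that equal replicate numbers mark a shared preparation, and deviations of equal numbers correlated at -0.16, -0.06 and -0.04, so libraries were not paired. With the replicate block 2380 genes, 3 sensors and 3 iron-sulfur genes were called. The endothelial count was 0 with the block and with either rescaling. Leaving out 1 library gave 2 to 5 carriers, 0 to 2 storage genes, 2 to 6 sensors, 2 to 10 heme genes, 3 to 11 iron-sulfur genes, 3 to 14 leukocyte markers, 1 to 3 cardiomyocyte markers and 0 to 1 endothelial marker. The acute phase count was 9 to 10, and among members Ireb2, the abundant Ftl1 entry and the low one on chromosome 5 (-0.04 with quantile normalization, -0.09 without antagomiR replicate 2, against 0.16) changed sign. Other genes near 0 changed sign without a call. With median-ratio scaling, quantile normalization and voom, in that order, Cybrd1 was at -0.0203, -0.083 and -0.0248, Slc46a1 at -0.018, -0.127 and -0.0074 and Sfxn1 at -0.0213, -0.0338 and -0.0202. Leaving out 1 library, Steap1 ran from -0.075 to 0.0709, Cybrd1 from -0.0094 to 0.0862, Slc46a1 from -0.047 to 0.0922, Sfxn1 from -0.0147 to 0.097, Pcbp1 from -0.0629 to 0.0825 and Herc2 from -0.164 to 0.0341. For all of these the cause was not tested. Depth limits Lcn2 in NC, with 1 to 4 fragments a library, and Hp.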

Other observations

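Genes of heme synthesis, transport and breakdown changed in both directions. Of 21 heme genes tested 3 rose and 3 fell, a share near the 26.7% called among all tested genes, with a median log2 difference of 0.02. Without NC replicate 3 the called heme genes were 10, without antagomiR replicate 1 or 2 they were 2, and without antagomiR replicate 3 they were 3. The constitutive heme oxygenase gene Hmox2 rose from 11.8 ± 0.366 to 16.3 ± 1.14 FPKM (SD, n = 3; limma adjusted p = 0.00334). Alas1, the first enzyme of heme synthesis, rose by 0.33 (limma adjusted p = 0.0138, and 0.0538 and 0.0640 without antagomiR replicate 2 or 3). The heme transporter genes Abcb6, Flvcr2 and Slc48a1 were called down at -0.38, -0.50 and -0.19. Slc48a1, the most abundant heme gene, went from 134 to 117 FPKM and lost its call in 5 of 14 alternatives. Pgrmc1, a heme-binding membrane protein gene, was at 73.7 and 78.1 FPKM without a call. Abcb6 lost its call without antagomiR replicate 1 and Flvcr2 without antagomiR replicate 1 or 2. The inducible Hmox1 had 18.9, 18.2 and 72.7 FPKM in the NC libraries against 35.3, 33.8 and 36.4 FPKM in the antagomiR libraries (replicates 1 to 3), and was named after its values were seen. NC replicate 3 was here above all antagomiR libraries.

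Of 30 genes of mitochondrial iron and iron-sulfur assembly 4 rose and 1 fell, where 26.7% of all tested genes were called, with a median log2 difference of 0.07. Without NC replicate 3 the called genes were 11, and without NC replicate 1 or 2 or antagomiR replicate 2 or 3 they were 3. Both mitoferrin genes, which encode the iron importers of mitochondria, rose. Slc25a37 went from 2.30 ± 0.0818 to 3.72 ± 0.359 FPKM (SD, n = 3; limma adjusted p = 0.00491) and Slc25a28 from 9.42 ± 1.07 to 14.1 ± 0.534 FPKM (limma adjusted p = 0.00429). The co-chaperone gene Hscb rose by 0.29 (limma adjusted p = 0.00939, and 0.058 by voom). Bola3 was called down at -0.26 and lost its call in 5 of 14 alternatives. The abundant assembly genes Hspa9 and Glrx3 had means of 155 and 121 FPKM in NC, and of 145 and 134 FPKM in the antagomiR group, without a call.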
